A study of Mus musculus with 26 samples.

Results

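The Ifi200 genes (also called PYHIN or p200 genes) form a cluster of interferon-inducible genes on mouse chromosome 1, and the members asked about here were Ifi203, Ifi204 and Ifi205. They were looked for among the probe sets that carry a single gene symbol in the platform's annotation, and the group had been picked for the large fall of Ifi204 in treated wild-type cells. A single probe set met this rule, that of Ifi204 (1419603_at), so 1 of the 3 member genes is measured on its own, among 12393 genes and 22626 probe sets in all. Ifi203 and Ifi205 appear only on 5 probe sets whose annotation lists several genes, and these are described below as shared probe sets without being assigned to a gene.

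S49 is a mouse T-lymphoma line grown in culture, and Kin- is a variant known for having no working protein kinase A (PKA), which cyclic AMP (cAMP) switches on. Kin- and wild-type (WT) cells were untreated (0 h) or had been given 100 µM 8-CPT-cAMP, an analog of cAMP that enters cells, and RNA was read on 26 arrays. Per line, 3 arrays stood for each of 2, 6 and 24 h of treatment and 4 for untreated cells, 8 groups in all. Both lines are single cultured lines. The treated arrays differ from the untreated ones in hours as well as in the analog, with no untreated array at 2, 6 or 24 h used here, so time in culture and the analog cannot be told apart. No label tells separate cultures from repeats of 1 culture within a group, so p-values measure the spread between arrays, which may be technical.

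Most Ifi200 proteins pair an N-terminal pyrin domain, through which they bind other proteins, with HIN domains, which bind DNA. Type I and type II interferons induce many of them, and they are best known as sensors of DNA in the cytosol or nucleus and as restraints on cell growth. Ifi204 encodes p204, which acts in DNA sensing upstream of STING and, when overproduced, slows growth and binds the ribosomal RNA transcription factor UBF and the retinoblastoma protein; it is best studied in macrophages and in muscle and bone precursors.

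The promoters of the family are shown because such windows are where interferon response elements are looked for, and because they show how alike some of these genes are. RefSeq windows of 300 bases (250 before to 50 after the start of each gene, build GRCm38.p6) were at hand for 2 of the 3 members (not Ifi204) and for 10 other family genes. Ifi203 is read from chr1:173942443-173942742 on the minus strand and Ifi205 from chr1:174031706-174032005 on the minus strand. Ifi202b is read from chr1:173982795-173983094 on the minus strand and Ifi209 from chr1:173630609-173630908 on the plus strand; both of these have a probe set of their own and are described below. Capitals mark GAAANNGAA on either strand (N is any base), the core of the interferon-stimulated response element.
Ifi203: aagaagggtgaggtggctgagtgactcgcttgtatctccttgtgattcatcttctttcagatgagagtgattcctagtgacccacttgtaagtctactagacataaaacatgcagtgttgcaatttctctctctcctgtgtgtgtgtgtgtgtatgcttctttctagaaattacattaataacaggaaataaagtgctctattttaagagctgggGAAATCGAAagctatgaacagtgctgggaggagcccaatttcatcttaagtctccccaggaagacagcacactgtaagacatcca
Ifi205: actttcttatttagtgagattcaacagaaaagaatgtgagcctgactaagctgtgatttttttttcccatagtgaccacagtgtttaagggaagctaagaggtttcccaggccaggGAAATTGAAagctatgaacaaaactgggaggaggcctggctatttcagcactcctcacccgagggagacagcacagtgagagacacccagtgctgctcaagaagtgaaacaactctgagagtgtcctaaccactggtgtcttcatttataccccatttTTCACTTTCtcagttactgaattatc
Ifi202b: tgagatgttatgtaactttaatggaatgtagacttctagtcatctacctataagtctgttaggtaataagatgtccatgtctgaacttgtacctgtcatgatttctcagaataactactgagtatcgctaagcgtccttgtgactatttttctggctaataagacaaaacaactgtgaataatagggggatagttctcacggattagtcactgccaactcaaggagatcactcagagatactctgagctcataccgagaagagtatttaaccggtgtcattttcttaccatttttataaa
Ifi209: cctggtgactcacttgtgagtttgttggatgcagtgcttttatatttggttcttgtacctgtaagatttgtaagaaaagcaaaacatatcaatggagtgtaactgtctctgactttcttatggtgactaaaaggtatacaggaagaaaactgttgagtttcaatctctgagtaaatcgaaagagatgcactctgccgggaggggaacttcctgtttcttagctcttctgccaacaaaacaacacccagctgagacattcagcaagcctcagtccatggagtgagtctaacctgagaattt

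The 12 family genes have 14 windows, since Ifi203 and Mndal have 2 start sites each. This motif was in 10 of the 14 windows (71.4%), from 9 of the 12 genes, and in 8.56% of 32851 mouse promoter windows of the same length. Both windows of Mndal held it, while of those of Ifi203 the printed one did and the other, at chr1:173942623-173942922, had no match. Ifi202b, Ifi209 and Aim2 had no match, which says only that these letters are not in the window. TGACG, the short form of the cAMP response element, was in 0 of the 14 windows and in 20.8% of all windows, and the full element TGACGTCA was in 1.79% of all windows. A gamma-activated site, TTCNNNGAA, was in 1 of the 14 windows, that of Ifi202b at base −148, and in 8.3% of all windows. The PU.1 core GAGGAA was in 5 of the 14 windows (35.7%), those of Aim2, Ifi206, Ifi214, Ifi213 and Ifi208, and in 28.3% of all windows. In the 4 of these other than Aim2 it overlaps the GAAANNGAA match, and no window of Ifi203 or Ifi205 held it. The longest alignment among the 4 window pairs of Mndal and Ifi203 was 94.3% identical over 299 bases, and the other 3 were 95.4% over 109, 98.6% over 70 and 80% over 20. The windows of Ifi211 and Ifi205 were 93.5% identical over 201 bases, and those of Ifi214 and Ifi209 95.7% over 300.

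Values are the deposited scores, whose scale is not stated; their square root was read as a log2 level, which is an assumption, and all levels and differences below are on that square-root scale unless said otherwise. Of the T-lineage markers, 6 of 7 measured lay above the array median on all 26 arrays, and none of the B-cell, dendritic-cell or fibroblast markers did on any array. Of 4 granulocyte markers, S100a9 was above it on 2 arrays and the other 3 on none. Of 3 erythroid markers, Klf1 was above it on 3 arrays and the other 2 on none. Of 8 macrophage and monocyte markers, Csf1r was above the median on all arrays, Itgam on 2 and Fcgr3 on 1. Cd14, Adgre1, Lyz2, Cd68 and Mpeg1 were above it on none. Crem, a cAMP-induced repressor gene, read higher in treated than in untreated WT cells. Its mean was 4.14, 10.21, 9.69 and 9.85 at 0, 2, 6 and 24 h in WT against 4.16, 4.21, 4.28 and 4.02 in Kin-. The arrays numbered 1 to 14 stood apart from those numbered 16 to 47 on the first component of the variance within groups (35.5% of it), and every group held arrays of both sets. Arrays 1 to 14 hold only 1 array of each treated group. A call lost in that set alone cannot tell a smaller difference from fewer arrays.

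Ifi204 was high in untreated WT cells and stepped down at each time of treatment. The untreated WT arrays read 9.26, 9.15, 9.50 and 9.42 (arrays 1, 13, 16 and 36), the 2 h arrays 7.20, 7.64 and 7.02 (arrays 2, 17 and 37), the 6 h arrays 6.86, 6.65 and 6.06 (arrays 3, 18 and 38) and the 24 h arrays 5.12, 4.99 and 4.80 (arrays 4, 19 and 39). No array of one time overlapped those of the time before it. On the deposited scale the 3 WT arrays at 24 h read 26.2, 24.9 and 23.0, against 85.8, 83.8, 90.3 and 88.7 untreated.

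**Figure D1:**
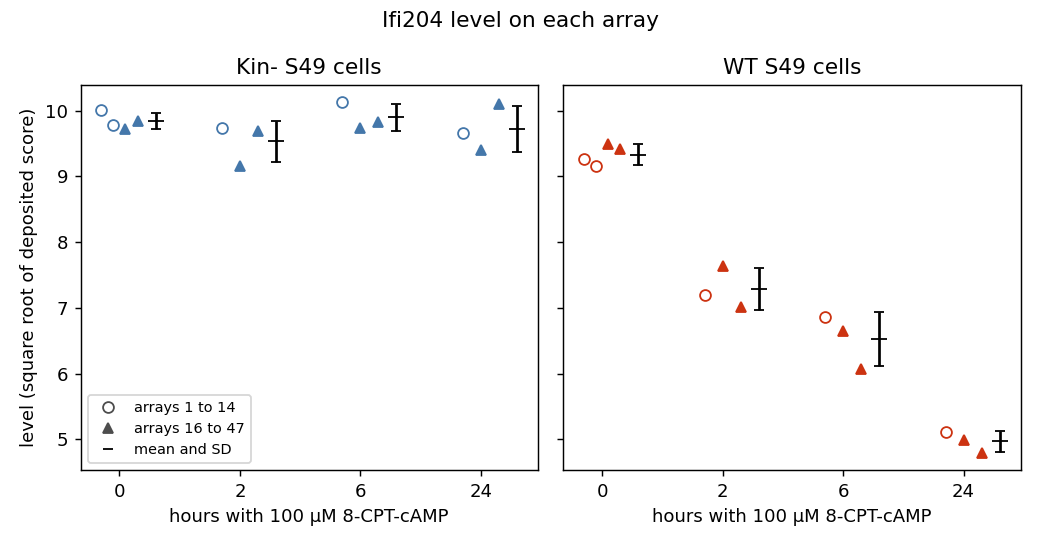
Level of Ifi204 (square root of the deposited score, read as log2) on each array by hours of 8-CPT-cAMP, Kin- at left and WT at right; open circles are arrays 1 to 14, filled triangles arrays 16 to 47, bars the mean and SD. In WT the 3 arrays at 24 h lie between 4.80 and 5.12, below all untreated WT arrays, while every Kin- array lies at 9.17 or above.

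Group means of Ifi204 in WT were 9.33 ± 0.16 (SD, n = 4), 7.29 ± 0.32, 6.53 ± 0.41 and 4.97 ± 0.16 (SD, n = 3 each) at 0, 2, 6 and 24 h. The differences from 0 h were −2.05, −2.81 and −4.37, each with a standard error of 0.19. Since this fall chose the gene, these values are a description and were not tested. Ranked over all 22626 probe sets from the most negative difference, Ifi204 stood at 30 at 2 h, 18 at 6 h and 5 at 24 h. Of all probe sets, 4.42% lay below every untreated WT array at all 3 times. The step between 0 and 2 h was −2.05, that between 2 and 6 h −0.76 and that between 6 and 24 h −1.56. The arrays read bulk RNA, so fewer cells carrying the transcript and less transcript per cell cannot be told apart.

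In the array numbers of the labels, 3 WT runs hold 0, 2, 6 and 24 h one after the other. Taken within these runs the 24 h differences of Ifi204 were −4.14 (run from array 1), −4.52 (from array 16) and −4.62 (from array 36). The corresponding 2 h differences were −2.06, −1.86 and −2.40, and the 6 h differences −2.40, −2.85 and −3.35. All 9 were negative, which follows from no treated WT array overlapping the untreated ones. The run of the first array set had the smallest difference at 6 and 24 h. At 24 h in WT the summed level of the 8 macrophage markers was 31.95 to 36.60, against 30.05 to 30.39 in untreated WT, and that of the 7 T-lineage markers 76.1 to 81.0 against 73.2 to 75.8; their part in the result was not tested.

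In Kin- cells Ifi204 read above 9 on every array, and no time differed from 0 h by more than 0.31. The untreated Kin- arrays read 10.00, 9.78, 9.73 and 9.84, the 2 h arrays 9.74, 9.17 and 9.69, the 6 h arrays 10.13, 9.75 and 9.82 and the 24 h arrays 9.66, 9.40 and 10.10. Each treated group overlapped the untreated one. The differences from 0 h were −0.31 at 2 h (95% confidence interval −0.71 to 0.09), 0.06 at 6 h (−0.34 to 0.46) and −0.12 at 24 h (−0.52 to 0.28), and limma's adjusted p was 1 at each time. No probe set passed in Kin- at any time, a called share of 0% over 22626 probe sets, while 489, 429 and 491 had an unadjusted p under 0.05 at 2, 6 and 24 h. The 24 h difference of Ifi204 in WT minus that in Kin- was −4.25 ± 0.27 (SE), given as a description because the WT values chose the gene.

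Untreated Kin- cells read higher for Ifi204 than untreated WT cells, 9.84 ± 0.12 against 9.33 ± 0.16 (SD, n = 4 each). The lowest Kin- array, 9.73, lay above the highest WT array, 9.50. The difference was 0.50 ± 0.18 (SE; 95% confidence interval 0.13 to 0.88) and did not pass over all probe sets (limma, adjusted p = 0.169, unadjusted p = 0.0101). It passed when the 2 untreated groups were fitted alone (adjusted p = 0.0416), and these WT arrays are also the ones against which the fall was seen. Over all probe sets 3.68% had every untreated Kin- array above every untreated WT array, and 3.01% passed the test in either direction, 1.58% as higher.

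Ordered by mean, Ifi204 ran from WT at 24 h (4.97) through WT at 6 h (6.53), WT at 2 h (7.29), untreated WT (9.33), Kin- at 2 h (9.53), Kin- at 24 h (9.72) and untreated Kin- (9.84) to Kin- at 6 h (9.90). The first 4 did not overlap one another. From untreated WT upwards each group overlapped the next.

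Ifi202b encodes p202, a family protein without a pyrin domain that binds DNA and restrains the AIM2 inflammasome, and it was the other family gene with a lower level in treated WT cells at all 3 times. Its probe set (1421551_s_at) read 12.36, 12.26, 12.60 and 12.56 in untreated WT, 10.35, 10.71 and 10.47 at 2 h, 10.70, 11.19 and 11.38 at 6 h and 10.00, 9.04 and 9.87 at 24 h. No treated array reached the untreated ones, and the 6 h arrays read above or near the 2 h arrays, so the course was not a steady descent. It fell by 1.93 at 2 h (limma, adjusted p = 1.82e-06), 1.36 at 6 h (adjusted p = 9.59e-05) and 2.81 ± 0.22 (SE) at 24 h (adjusted p = 2.61e-09). In arrays 1 to 14 alone, with 1 array at 2 h, the 2 h difference was −1.96 and did not pass. The shares of all probe sets that passed were 14.4%, 19.6% and 30.0% (7.25%, 10.1% and 15.6% as lower). The WT response at 24 h was 2.84 lower than the Kin- response (a difference of −2.84, adjusted p = 9.1e-07; 21.5% of probe sets passed this test). Untreated Kin- read 12.87 against 12.44 in untreated WT, a difference of 0.43 that did not pass (adjusted p = 0.425).

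Mndal, a growth-restraining family gene with a pyrin domain, had a course of 2 directions in WT. Its brighter probe set (1452231_x_at) read 10.45, 10.25, 10.83 and 10.94 untreated, 8.88, 9.61 and 9.58 at 2 h, 9.60, 10.59 and 10.39 at 6 h and 10.76, 12.00 and 11.78 at 24 h. It fell by 1.26 at 2 h (limma, adjusted p = 0.00396), stood at −0.43 at 6 h (adjusted p = 0.415) and rose by 0.89 at 24 h (adjusted p = 0.0215). The second probe set of Mndal (1426906_at) gave −1.19 (adjusted p = 0.00209), −0.44 (adjusted p = 0.293) and 0.87 (adjusted p = 0.0102). At 24 h array 4 overlapped the untreated arrays and arrays 19 and 39 lay above them. For 1452231_x_at the 24 h call was lost without array 19 (0.65, adjusted p = 0.16), array 39 (0.76, adjusted p = 0.108), array 1 (0.84, adjusted p = 0.0543) or array 13 (0.77, adjusted p = 0.0705), and the 24 h WT response did not pass against that of Kin- (difference 0.83, adjusted p = 0.189). In arrays 1 to 14 alone, with 1 array at each treated time, neither call of this probe set held (−1.48 at 2 h and 0.41 at 24 h). That at 24 h did not hold with the 2 groups alone either (limma, adjusted p = 0.104).

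Ifi209, a family gene near Aim2 in the cluster, rose late in WT on one of its probe sets, as 14.4% of all probe sets did at 24 h. That probe set (1435331_at) read 3.20, 3.17, 3.15 and 3.20 untreated, 3.12, 3.38 and 3.37 at 2 h, 3.12, 4.51 and 3.57 at 6 h and 4.82, 6.76 and 5.93 at 24 h. The 24 h arrays did not overlap the untreated ones, and the spread among them was wide. The difference was 0.11 at 2 h, 0.55 at 6 h (adjusted p = 0.262) and 2.65 ± 0.30 (SE) at 24 h (limma, adjusted p = 4.19e-07), and the WT response at 24 h exceeded that of Kin- by 2.48 (adjusted p = 0.000155). The other probe set of Ifi209 (1435330_at) disagreed: it read 2.07 to 2.20 on all WT arrays and differed by −0.0064 at 24 h (adjusted p = 0.992).

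Aim2, whose protein binds cytosolic DNA and starts an inflammasome, differed between the untreated lines. Untreated Kin- arrays read 4.91, 5.44, 5.23 and 5.37, against 7.73, 7.06, 5.65 and 6.42 in untreated WT. The groups did not overlap, as for 3.77% of all probe sets in this direction, and WT arrays 1 and 13 were the highest. The difference was −1.48 ± 0.37 (SE; limma, adjusted p = 0.0299). It was −0.73 among arrays 16 to 47 (adjusted p = 0.198) and −2.22 among arrays 1 to 14 (adjusted p = 0.236), and it no longer passed when any one of 6 of the 8 untreated arrays was left out (all but WT arrays 16 and 36; adjusted p 0.0561 to 0.122), nor with untransformed scores (adjusted p = 0.0554) or the 2 groups alone (adjusted p = 0.146). In WT the differences of Aim2 from 0 h were −0.04, −0.48 and 0.05 at 2, 6 and 24 h and none passed.

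**Figure D2:**
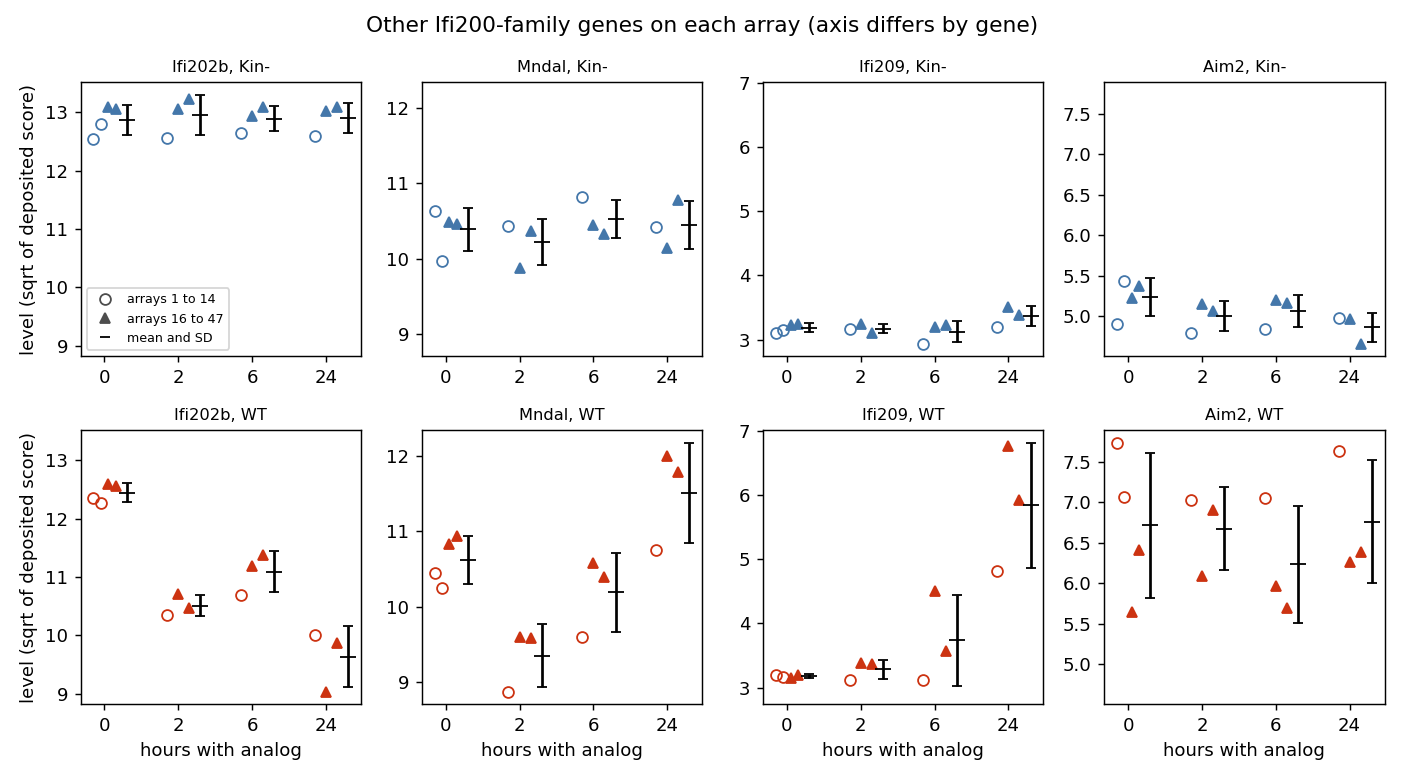
Level (square root of the deposited score, read as log2) of the brightest single-symbol probe set of Ifi202b, Mndal, Ifi209 and Aim2 on each array by hours of treatment, Kin- and WT; open circles are arrays 1 to 14, filled triangles arrays 16 to 47, bars the mean and SD. In WT Ifi202b lies lower at all 3 times, Mndal lies lower at 2 h, and Ifi209 reads 4.82 to 6.76 at 24 h.

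The 3 shared probe sets that list Ifi203 also list its pseudogene Ifi203-ps and uncharacterised loci, so they measure the sum of transcripts they match. Their values in WT are given without a test. On 1448775_at untreated WT arrays read 8.74, 9.05, 8.98 and 8.82, the 2 h arrays 6.06, 6.43 and 6.17, the 6 h arrays 8.15, 8.69 and 8.76 and the 24 h arrays 8.84, 10.24 and 9.86. The 2 h arrays were far below all others. Of the 6 h arrays 1 lay within the untreated range and 2 below it, array 3 the farthest, and of the 24 h arrays 2 lay above it. The differences from 0 h were −2.68, −0.37 and 0.75 at 2, 6 and 24 h on this probe set, −1.67, −0.35 and 0.11 on 1451567_a_at and −0.22, −0.04 and 0.36 on 1425008_a_at. Single arrays moved several of these values: without array 3 the 6 h differences were −0.17 on 1448775_at and −0.12 on 1451567_a_at. At 24 h the difference on 1448775_at was 1.15 without array 4 and 0.45 without array 19. On 1451567_a_at it was 0.44 without array 4, and it turned to −0.11 without array 19 and −0.01 without array 39. On 1425008_a_at it was 0.61 without array 4 and 0.18 without array 19, the 2 h difference was −0.09 without array 16 and −0.12 without array 2, and the 6 h difference turned to 0.09 without array 16 and 0.02 without array 18.

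The 2 shared probe sets that list Ifi205 behaved differently from each other. On 1452348_s_at, which lists Mndal, Ifi211, Ifi205 and Ifi204, untreated WT arrays read 9.80, 9.55, 10.29 and 10.10, the 2 h arrays 8.15, 9.12 and 8.70, the 6 h arrays 8.48, 9.04 and 8.59 and the 24 h arrays 8.68, 9.83 and 9.56. The 2 and 6 h arrays lay below the untreated ones and the 24 h arrays overlapped them, and the differences were −1.28, −1.23 and −0.58. On 1452349_x_at, which lists Ifi211 and Ifi205, the differences were −0.66, −0.31 and 0.35. On 1452348_s_at the 24 h difference was −0.24 without array 4. On 1452349_x_at the 2 h difference was −0.31 without array 2, and that at 24 h was 0.68 without array 4, 0.19 without array 19 and 0.16 without array 39. Array 4 read lower than arrays 19 and 39 at 24 h on all 5 shared probe sets. Among arrays 1 to 14 alone the 24 h differences were −0.06 on 1448775_at, −0.58 on 1451567_a_at, −0.0043 on 1425008_a_at, −0.12 on 1452349_x_at and −0.99 on 1452348_s_at.

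**Figure D3:**
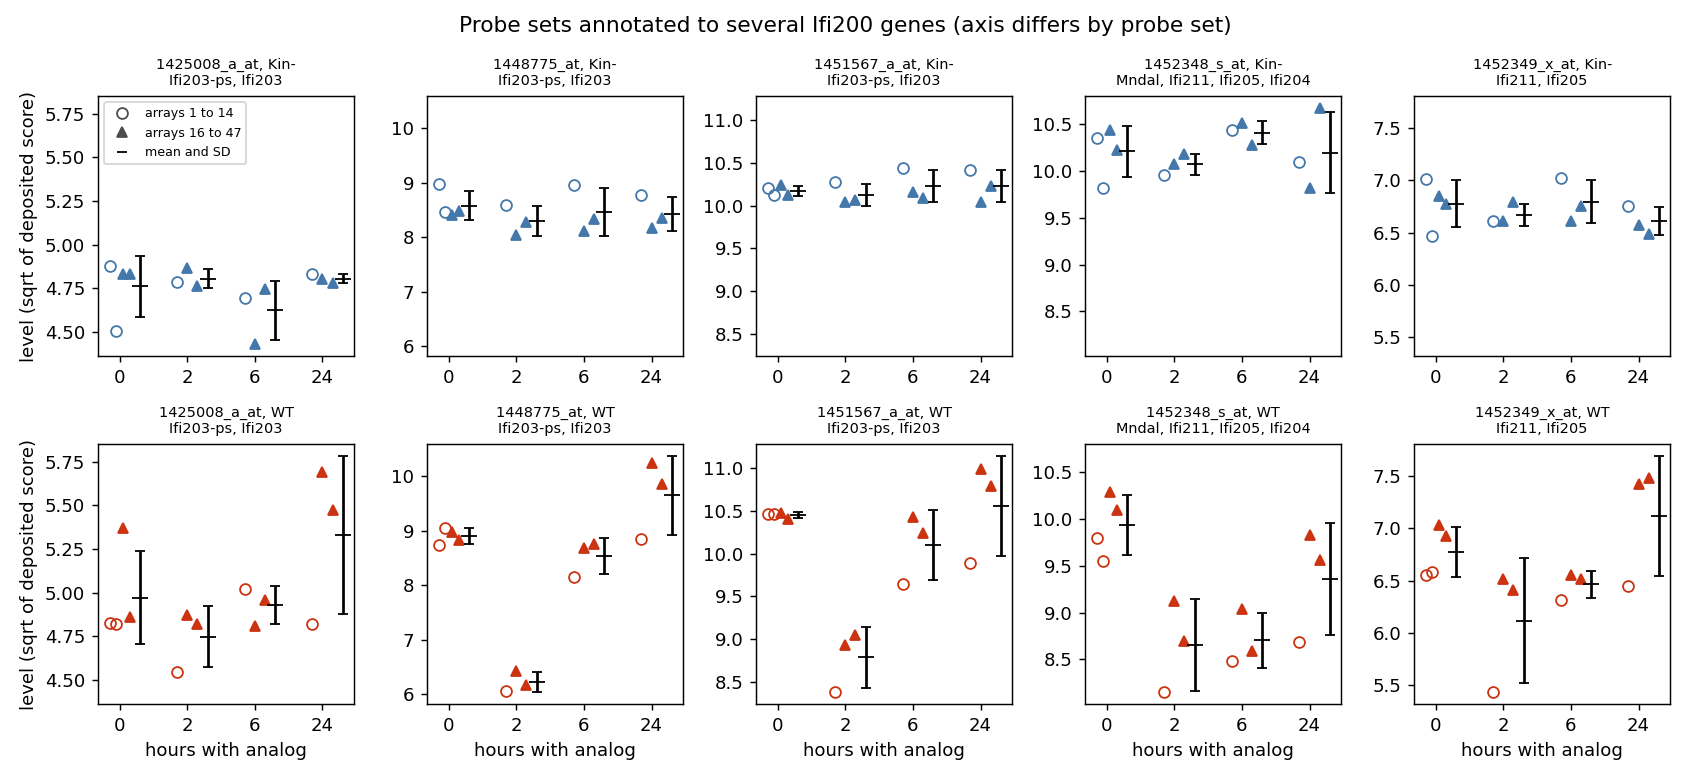
Level (square root of the deposited score, read as log2) of the 5 probe sets that list Ifi203 or Ifi205 with other genes, on each array by hours of treatment, Kin- and WT; open circles are arrays 1 to 14, filled triangles arrays 16 to 47, bars the mean and SD. In WT the 2 h arrays of 1448775_at read 6.06 to 6.43, below every other array of that probe set.

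In Kin- cells the 11 shared and other-family probe sets differed from 0 h by −0.27 to 0.08 at 2 h, −0.17 to 0.20 at 6 h and −0.37 to 0.19 at 24 h, and none passed. Between the untreated lines 1 of the 11 passed, against 3.01% of all probe sets. It was that of Aim2, whose call was lost without single arrays, as given above.

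Along chromosome 1 the RefSeq table places Ifi204 between Ifi207 and Ifi203-ps, with Mndal, Ifi211, Ifi203, Ifi202b and Ifi205 following on one side and Ifi208, Ifi209, Ifi213, Ifi214, Ifi206 and Aim2 on the other. Of 46 genes within 500 kb of Ifi203, Ifi204 or Ifi205, these members included, 33 code for proteins. On a probe set of their own 9 were measured, Ifi204 among them. The measured genes outside the family, Ackr1, Cadm3, Mptx1 and Fmn2, differed by −0.07, −0.02, −0.01 and 0.00 at 24 h in WT, and none passed. Neighbours within the family thus differed in both directions at 24 h, with Ifi204 and Ifi202b lower and, on 1 of its probe sets, Ifi209 higher. Mndal read higher too, a call that was lost without single arrays, and Aim2 differed by 0.05 and did not pass.

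Genes around the Ifi200 proteins were then read from 5 lists: other family genes, nucleic acid sensing, interferon receptors and transducers, interferon-stimulated genes, and growth partners of the proteins. In WT at 24 h, 42 of 117 measured genes rose and 11 fell, together 45.3%. Counted the same way, by the brightest probe set, 32.5% of all 12393 genes passed (16.3% rose and 16.3% fell); over all probe sets it was 30.0% (14.4% and 15.6%). In Kin- 0 of 117 passed at any time. At 2 h 21 listed genes rose and 12 fell in WT (7.25% and 8.44% of all genes, 7.11% and 7.25% of all probe sets), and at 6 h 36 rose and 11 fell (11.0% and 11.1% of all genes, 9.52% and 10.1% of all probe sets).

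Of 26 nucleic acid sensing genes, 6 rose and 2 fell in WT at 24 h, a share of 30.8% that is near the 32.5% of all genes, and the median difference was 0.08 against −0.0059 over all genes. Samhd1, which breaks down deoxynucleotides, rose by 3.02 (7.43 ± 1.10 at 24 h against 4.42 ± 0.36 untreated; SD, n = 3 and 4; limma, adjusted p = 3.27e-06). Sting1, the adaptor through which cytosolic DNA sensing signals, rose by 2.06 (8.32 ± 0.34 against 6.26 ± 0.10; adjusted p = 6.07e-08). Dnase2a, a lysosomal nuclease, rose by 1.67 (adjusted p = 9.5e-05) and Zbp1, a Z-form nucleic acid sensor, by 1.47 (adjusted p = 0.000346). In arrays 1 to 14 alone, with 1 array at 24 h, the Zbp1 difference was 0.82 and did not pass. Ddx41 and Rnaseh2c fell by 0.55 and 0.98.

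Of 20 interferon receptor and transducer genes, 14 rose and 0 fell at 24 h in WT, a share of 70% against 32.5% of all genes. The median difference was 1.02. At 2 h 12 had risen and 1 had fallen, together 65% against 15.7% of all genes. Irf8, a transcription factor of the interferon response, rose by 3.54 (11.16 ± 0.51 at 24 h against 7.63 ± 0.35 untreated; limma, adjusted p = 4.8e-07). The receptor subunit genes Ifngr1 and Ifnar1 rose by 3.28 (adjusted p = 1.76e-11) and 2.66 (adjusted p = 2.59e-10), and Jak2, a kinase gene of the type II receptor, by 2.23 (adjusted p = 4.56e-10). In WT at 0, 2, 6 and 24 h Ifngr1 read 8.69, 11.21, 11.41 and 11.96, and Ifnar1 7.24, 9.40, 9.48 and 9.90. Both thus read higher at 2, 6 and 24 h alike, and a relation to Ifi204 was not tested.

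Of 44 interferon-stimulated genes, 16 rose and 3 fell at 24 h in WT, a share of 43.2% against 32.5% of all genes. The median difference was 0.30. The other 25 did not pass, among them Mx1 (0.05), Oas1a (0.06), Rsad2 (0.07) and Ifit1 (1.17). The GTPase genes Iigp1, Igtp, Irgm2 and Gbp2 rose by 3.02 (limma, adjusted p = 0.00468), 2.67 (adjusted p = 0.000675), 2.46 (adjusted p = 0.00433) and 1.84 (adjusted p = 0.0153). Their WT means were higher at 6 h than at 24 h, 7.10 against 6.68 for Iigp1 and 10.95 against 9.74 for Igtp. For Irgm2 they were 8.24 against 7.11, and for Gbp2 6.91 against 4.79. Array 4 read lowest of the 24 h arrays for all 4: Gbp2 read 2.87 to 5.86 at 24 h against 2.85 to 3.17 untreated, and in arrays 1 to 14 its difference was −0.16. In those arrays alone, with 1 array at 24 h, Iigp1 stood at 0.17 and Igtp at 1.21, and neither passed. With the 2 groups alone Iigp1 (adjusted p = 0.0756) and Gbp2 (adjusted p = 0.119) did not pass, nor did Gbp2 with untransformed scores (adjusted p = 0.0632). Without array 39 Iigp1 stood at 2.32 (adjusted p = 0.0501), and Gbp2 stood at 1.42 without array 19 (adjusted p = 0.115) and 1.31 without array 39 (adjusted p = 0.136). Bst2, the gene of the virus-tethering protein tetherin, fell by 1.53, and H2-K1 and Pml fell by 0.37 and 0.50.

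Of 23 growth partners, 4 rose and 5 fell at 24 h in WT, a share of 39.1% against 32.5% of all genes. The median difference was −0.0096 against −0.0059 over all genes. Myc, which drives growth and ribosome production, fell by 2.12 (8.38 ± 0.45 at 24 h against 10.49 ± 0.45 untreated; limma, adjusted p = 1.4e-05). Polr1b and Polr1a, subunit genes of RNA polymerase I, fell by 2.02 (adjusted p = 7.03e-05) and by 1.68, E2f1 fell by 1.45 and E2f4 fell by 0.81. In arrays 1 to 14 alone, with 1 array at 24 h, the Polr1b difference was −1.02 and did not pass. Id2, an inhibitor of differentiation factor, rose by 2.11 (adjusted p = 1.05e-05) and Rbl2, a retinoblastoma relative, by 2.10 (adjusted p = 4.32e-08).

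**Figure D4:**
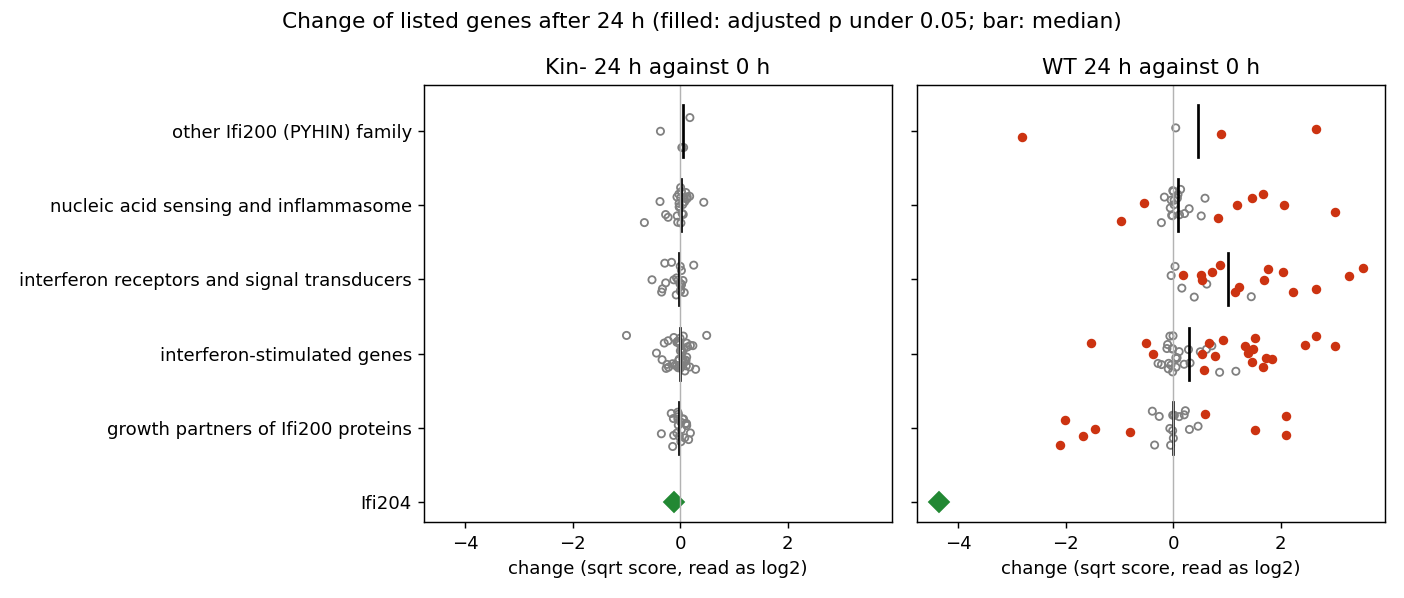
Difference from 0 h at 24 h (square-root scale, read as log2) of each measured gene of the 5 lists, Kin- and WT; filled points passed (adjusted p under 0.05), bars are list medians and the diamond is Ifi204, whose WT value was not tested. In WT the receptor list has a median of 1.02, while Ifi204 lies at −4.37, below every listed gene.

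Between the untreated lines 1 of the 117 genes was higher and 8 were lower in Kin-, 7.69% against 3.48% of all genes (1.74% higher and 1.73% lower) and 3.01% of all probe sets (1.58% higher and 1.42% lower). Irf8 was lower by 2.69 in Kin- (a difference of −2.69; limma, adjusted p = 0.000163) and Zbp1 by 1.04 (−1.04; adjusted p = 0.0368). The count ran from 2 to 8 when 1 untreated array was left out, 2 of them without array 40 and 3 without array 1 or array 44.

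The genes whose group means followed Ifi204 most closely were picked from 4216 single-symbol probe sets, 1 per gene being kept. All 4216 had a mean level of at least 5 and a range of at least 1 over the 8 group means. Pearson's r over the 8 means was 0.997 for Pwp1, 0.995 for Cacybp, 0.995 for Utp6, 0.995 for Fastkd2 and 0.994 for Dimt1, and over the 26 arrays it was 0.961, 0.947, 0.940, 0.959 and 0.965. Pwp1 read 8.70 ± 0.18 at 24 h in WT against 9.82 ± 0.17 untreated (SD, n = 3 and 4), and Dimt1, the gene of an 18S ribosomal RNA methylase, 7.91 ± 0.35 against 9.35 ± 0.15. Their WT differences were smaller than that of Ifi204. Picked over the 26 arrays instead, the 5 closest were Cinp, Setd6, Sfr1, Dimt1 and Pno1, which shared 1 gene with the first list. Within the family r over the 8 means was 0.970 for Ifi202b, −0.26 for Mndal, −0.74 for Aim2 and −0.83 for Ifi209. These are descriptions over points that share the WT fall by choice.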

How the data were processed

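Messenger RNA of 26 arrays (22626 probe sets) was analysed from 1 table. The authors deposited a processed score per probe set; the software and scale behind it are not stated by labels or headers. Scores ran from 0.375 to 267, and their square root was read as log2, an assumption. Groups came from the labels; array numbers name arrays. A mean for each group was estimated per probe set with limma 3.58.1 in R 4.3.3 (lmFit, eBayes), without covariates, with Benjamini-Hochberg adjustment over 22626 probe sets and a threshold of 0.05. The number of arrays limits the precision. The fits were tested on simulated data. Members and lists were chosen with earlier results of these data known.

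Named genes were the member, all measured family genes, the 5 most like Ifi204 and measured neighbours within 500 kb of Ifi203, Ifi204 or Ifi205. Up to 4 genes per list were named as well, those with the largest 24 h change in WT of at least 1 that passed. Other genes named were chosen after their values were seen. The brightest probe set stood for a gene. Ddx41, Rnaseh2c, Bst2, H2-K1, Pml, Polr1a, E2f1 and E2f4 were named as all the genes that fell. Promoters are RefSeq windows (GRCm38.p6), searched on both strands with Biopython 1.88. Alternatives were other powers of the score, log2, quantile normalization, array sets, a series block, the 2 groups alone and leaving out each array.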

Additional observations from a re-analysis of the deposited data

Results flagged for a closer look

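In untreated WT, array 16 stood apart from the other 3 arrays on the shared probe set 1425008_a_at (gap over range 0.929), and 1 array likewise stood apart for Iigp1 (0.922) and Gbp2 (0.858). In untreated Kin-, array 14 stood apart on 1425008_a_at (0.875) and array 5 on 1448775_at (0.878). Chance alone is expected to mark about 1 in 20 groups of 4 in this way, and the cause was not tested.

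The 24 h response differed between the lines, by limma's test of the difference itself (adjusted p under 0.05), for 2 other family genes: the WT response minus the Kin- response was −2.836 for Ifi202b and 2.475 for Ifi209. Among sensing genes it was 3.077 for Samhd1, 2.016 for Sting1, 1.941 for Dnase2a and 2.142 for Zbp1. Among receptor and transducer genes it was 3.826 for Irf8, 3.284 for Ifngr1, 2.701 for Ifnar1 and 2.503 for Jak2. Among interferon-stimulated genes it was 2.621 for Igtp and 2.68 for Irgm2; Igtp lost this call without array 19 or 39 (lowest value 2.176), and Irgm2 lost it without any one of 9 arrays (2.345 to 2.683). Among growth partners it was −2.271 for Myc, 1.986 for Id2, 2.037 for Rbl2 and −1.894 for Polr1b. In arrays 1 to 14 alone these calls were lost for the sensing genes Samhd1 (1.566), Sting1 (1.303), Dnase2a (1.956) and Zbp1 (1.477). They were lost there too for Igtp (1.157), Irgm2 (1.216), Id2 (1.748), Rbl2 (1.563) and Polr1b (−0.8525). That set holds 1 array of each treated group, so a lost call there cannot tell a smaller difference from fewer arrays. With untransformed scores calls were lost for Igtp (limma, adjusted p = 0.0536) and Irgm2 (adjusted p = 0.139), and with the power 0.75 for Irgm2 (adjusted p = 0.0751). No explanation of these differences was tested.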

How the results depend on the processing

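The WT difference of Ifi204 stayed negative at all 3 times under every alternative run. This fall chose the gene and no treated WT array overlapped the untreated ones, so the kept sign is a description and no support. At 2, 6 and 24 h it was −8.845, −11.83 and −17.45 with the power 0.75 of the score, −34, −44.43 and −62.46 with untransformed scores and −0.7165, −1.036 and −1.821 with log2 of the score, in the units of those scales. In arrays 1 to 14 alone it was −2.344 at 6 h and −4.091 at 24 h, and in arrays 16 to 47 alone −4.569 at 24 h. Leaving out 1 array gave −2.224 to −1.916 at 2 h, −2.976 to −2.576 at 6 h and −4.443 to −4.282 at 24 h. The differences of Ifi204 in Kin-, which did not pass, changed sign at 6 h in arrays 16 to 47 (−3.312e-05) and over single left-out arrays ran from −0.05385 to 0.1369 at 6 h and from −0.3092 to 0.03716 at 24 h. Untreated Kin- against WT (0.505) passed in 1 of 17 alternatives, the 2 groups alone.

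Of the 117 listed genes, 9 passed between the untreated lines, against 3 with untransformed scores, 15 with a term for the array set, 15 in arrays 16 to 47, 0 in arrays 1 to 14 and 2 to 8 with 1 array left out. In arrays 1 to 14 alone 6, 18 and 31 passed in WT at 2, 6 and 24 h, where all arrays gave 33, 47 and 53. Over all probe sets that set gave 235, 719 and 3183 calls in WT, against 3249, 4441 and 6780, and 0 between the untreated lines, against 680 (1354 with a term for the array sets, 1249 in arrays 16 to 47 alone, 410 with the 2 groups alone and 450 without array 40). In Kin- from 0 to 4 probe sets passed. In arrays 1 to 14 these signs turned at 24 h in WT: 1425008_a_at (−0.004316; 0.1945 at 6 h), 1448775_at (−0.05843), 1451567_a_at (−0.5751), 1452349_x_at (−0.1169) and Gbp2 (−0.1608; against Kin- −0.1922), as did uncalled values of Ifi209 (−0.06672 at 2 h, −0.06104 at 6 h, −0.06098 untreated). Aim2 at 2 h turned to 0.04298 with that term, 0.4636 in arrays 16 to 47 alone and 0.07607 with the series block. Over single left-out arrays, signs also turned within −0.09008 to 0.09168 for 1425008_a_at at 6 h, within −0.1083 to 0.4426 for 1451567_a_at at 24 h, within −0.395 to 0.2999 and −0.3912 to 0.3855 for Aim2 at 2 and 24 h (−0.0219 to 0.7548 against Kin-), and within −0.02014 to 0.02945 for untreated Ifi209. The cause was not tested. Of 1604 recomputed values of single probe sets, 1458 kept direction and side of the threshold or moved by less than the spread between arrays.

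The labels do not say that consecutive array numbers pair arrays. With these runs as a replicate block Ifi204 stood at −2.108, −2.867 and −4.428 in WT and at −0.3257, 0.04073 and −0.1398 in Kin-, and 7893 probe sets passed in WT at 24 h. Mndal passed at 6 h with this block (−0.5496, adjusted p = 0.0227) and its 24 h response then differed between the lines (0.846, adjusted p = 0.0123), as did those of Iigp1 (3.161, adjusted p = 0.0197) and Gbp2 (1.954, adjusted p = 0.0376). The block could not be fitted between the untreated lines, since no run holds both.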
